A study of Citrus x clementina and Citrus japonica with 6 samples.

Results

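The gibberellin gene models of citrus fruit were compared between kumquat (Citrus japonica in the sample records, Fortunella japonica in the study's title), a small-fruited relative of mandarins, and Clementine mandarin (Citrus x clementina). They are the models whose first KEGG orthology name is an enzyme of gibberellin synthesis or inactivation, the gibberellin receptor GID1, a DELLA protein or the F-box protein GID2. This rule took 133 of the 30139 models in the deposited table, in 11 families. The series holds 3 RNA-seq libraries of kumquat fruit and 3 of clementine fruit, all untreated and taken from the experimental fields of 1 breeding centre. Each library pooled fruit of 5 ages: 15, 30 and 45 days after flowering in both species, then 80 and 120 days in kumquat and 100 and 180 days in clementine. Species and the ages of the last 2 stages therefore cannot be told apart. The development stage label of the kumquat libraries speaks of clementine fruit, while their cultivar label says kumquat. Materials came from 3 plants, but no library is tied to a plant, so p-values measure the spread between these libraries.

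Gibberellins are plant hormones that promote cell division and elongation, and in citrus they are known for their role in fruit set and for delaying peel ageing. Terpene cyclases make ent-kaurene from geranylgeranyl diphosphate, and cytochrome P450 enzymes (ent-kaurene oxidase and ent-kaurenoic acid oxidase) turn it into the first gibberellins. Soluble dioxygenases then act in turn: gibberellin 20-oxidases and 3-oxidases complete the active hormone, and 2-oxidases inactivate it. The hormone binds the receptor GID1, which holds the DELLA repressors. The F-box protein GID2, known as SLEEPY1 in Arabidopsis, marks the bound DELLA proteins for breakdown. Each gene model is named below by its identifier in the table and its KEGG family.

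Levels are in FPKM, fragment counts corrected for the length of the model and the size of the library. FPKM summed to between 691560 and 707892 per library, and the total number of fragments is unknown. Steps between low values gave depths relative to clementine replicate 2 of 0.87 to 0.93 in the kumquat libraries and 0.96 to 1 in the clementine libraries. Each is the most frequent ratio among low values, shared by only 2.85% to 8.79% of them outside that library, so these depths are rough. A log2 change is the kumquat mean minus the clementine mean of log2(FPKM + 1), so changes of weakly expressed models come out too small. limma was run over the 22050 models that reached 1 FPKM in 3 or more libraries. A model was called where its p, adjusted by Benjamini-Hochberg over all of them, was under 0.05. Both species were measured on clementine gene models, so a lower RNA level and a kumquat sequence that departs from the clementine model cannot be told apart. In pooled fruit, fewer cells of a type and less RNA per cell cannot be told apart either.

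The families did not move as a block. Of the 133 models 92 passed the filter, and limma called 33 of them higher in kumquat and 29 lower, leaving 30 without a call. That is 67.39% called in either direction, where 57.1% of all tested models were called, 29.9% as higher and 27.1% as lower. Changes of 2-fold or more were called in 39.13% of the gibberellin models, 19 upward and 17 downward, and in 24.5% of all tested models, 12.4% upward and 12.1% downward. These 2-fold calls are log2 changes of 1 or more in size, and 1 in each direction (Ciclev10014813m upward, Ciclev10011141m downward) rests on a species listed at 0 in all its libraries. Without clementine replicate 1 the count of 17 became 11, and it was 16 to 17 with any 1 library left out when the models of the full data were kept. The median log2 change of the tested gibberellin models was -0.02, beside 0.04 over all tested models. The libraries of the 2 species did not overlap in 34 models that were higher and 34 that were lower, where 33.5% and 30.4% of all tested models did the same. The median size of the change, regardless of sign, was 0.69 on the log2 scale against 0.50 over all tested models.

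**Figure D1:**
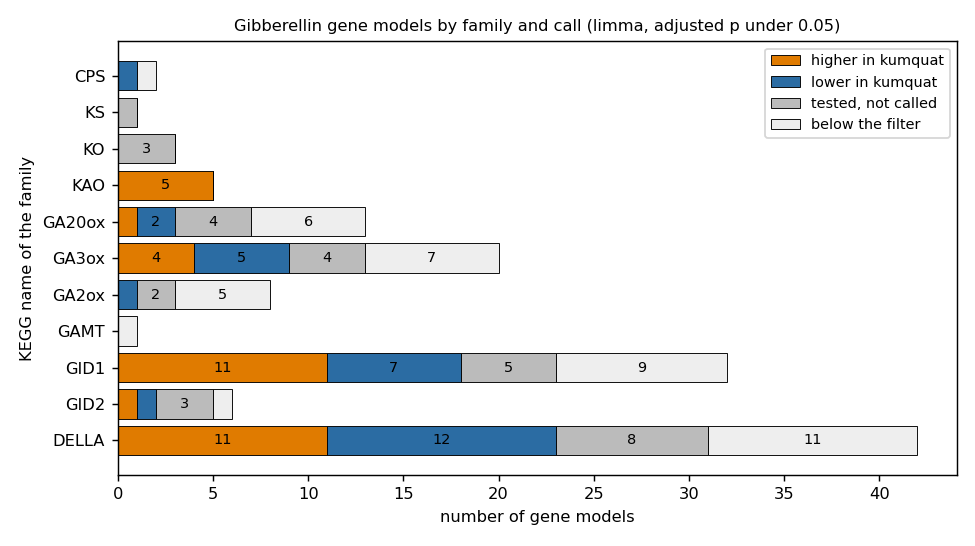
The bars count gene models in each gibberellin family (vertical axis) by call, as the number of models on the horizontal axis: higher in kumquat, lower in kumquat, tested but not called, and below the filter on low values. CPS, KS, KO and KAO are ent-copalyl diphosphate synthase, ent-kaurene synthase, ent-kaurene oxidase and ent-kaurenoic acid hydroxylase, GA20ox, GA3ox and GA2ox are the dioxygenases, and GAMT is the methyltransferase; all 5 KAO models were higher in kumquat, while GA3ox, GID1 and DELLA split in both directions.

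The remaining 41 models stayed below the filter, none of them above 3.62 FPKM in any library and 30 of them never above 1 FPKM. Among all 133, 10 were listed at 0 in every kumquat library and 13 in every clementine library. A value of 0 in this table may be a failed estimate, so no fold is given against it. The only model named gibberellin A4 carboxyl methyltransferase, an enzyme that inactivates the hormone by methylation in Arabidopsis, was among the low ones. This model, Ciclev10017993m, had 0.24, 0.11 and 0 FPKM in kumquat and 0.65, 0.21 and 0.31 FPKM in clementine.

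The first steps of the pathway were expressed at low levels. Ciclev10023706m, an ent-copalyl diphosphate synthase, which makes the first cyclic intermediate, had 0.94, 1.65 and 2.18 FPKM in kumquat against 3.6, 3.09 and 2.67 FPKM in clementine. The 2 groups did not overlap, the clementine mean was 1.96 times the kumquat mean, and the log2 change was -0.69 (SE 0.229, adjusted p = 0.0339). This call was lost without any 1 of kumquat replicates 1 or 2 or clementine replicates 1, 2 or 3 (adjusted p 0.0565 to 0.109), with no filter (adjusted p = 0.0545) and with the replicate number in the fit (adjusted p = 0.0637). The second model of that name, Ciclev10018875m, did not exceed 0.95 FPKM. Ciclev10006575m, the single ent-kaurene synthase, had 3.4, 3.58 and 2.7 FPKM in kumquat and 4.42, 3.68 and 3.72 FPKM in clementine (log2 change -0.23, 95% interval -0.61 to 0.16).

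The 3 models named ent-kaurene oxidase, a P450 that oxidises ent-kaurene to ent-kaurenoic acid, stood close to one another and close between species. Their means lay between 8.55 and 12.0 FPKM in kumquat and between 10.3 and 11.2 FPKM in clementine. The most abundant, Ciclev10000902m, had 11.59, 13.69 and 10.71 FPKM in kumquat and 10.47, 11.21 and 11.83 FPKM in clementine. Its groups overlapped, and the 95% interval of its log2 change ran from -0.18 to 0.36. None of the 3 was called with limma, and the smallest adjusted p among them was 0.0940, for Ciclev10000884m.

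At the next step the picture was different. All 5 models named ent-kaurenoic acid hydroxylase, the P450 family that makes the first gibberellin from ent-kaurenoic acid, were higher in kumquat, and for all of them the lowest kumquat library lay above the highest clementine library. Over all tested models 29.9% were called higher, and 33.5% were higher without overlap. Ciclev10032478m had 137.66, 157.38 and 150.27 FPKM in kumquat against 19.73, 18.29 and 23.91 FPKM in clementine. The kumquat mean was 7.19 times the clementine mean, with a log2 change of 2.79 (SE 0.103, adjusted p = 9.46e-07). It was the most abundant model of the family in kumquat, where it held 51.4% of the family's summed FPKM.

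Ciclev10031862m had 24.54, 28.18 and 21.71 FPKM in kumquat and 8.39, 8.53 and 7.32 FPKM in clementine (3.07-fold on the means, SE of the log2 change 0.119, adjusted p = 3.56e-05). Ciclev10033793m had 14.4, 14.38 and 13.94 FPKM in kumquat and 3.28, 4.52 and 4.95 FPKM in clementine (log2 change 1.55, SE 0.148, adjusted p = 9.52e-05). The closest protein to Ciclev10033793m is named beta-amyrin 11-oxidase-like, a P450 of triterpenoid synthesis known from licorice. Its place in the gibberellin pathway therefore rests on the KEGG name alone. The other models of the family, Ciclev10032478m among them, match hypothetical proteins, so their place rests on the KEGG name as well. The smaller changes were those of Ciclev10019986m (1.67-fold) and Ciclev10031341m (1.16-fold). Ciclev10031341m, at 83.43, 86.93 and 82.11 FPKM in kumquat and 73.8, 72.04 and 71.48 FPKM in clementine, was the most abundant of the family in clementine and held 62.7% of the family's sum there. The sum of the 5 models was 278.1 to 305.45 FPKM in the kumquat libraries and 112.66 to 117.06 FPKM in the clementine libraries.

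The dioxygenases complete and inactivate the hormone. The names of this enzyme class are not exclusive: of the 41 models named as 20-, 3- or 2-oxidase first, 22 also carry another KEGG name, among them flavonol synthase, feruloyl-CoA ortho-hydroxylase and aminocyclopropanecarboxylate oxidase, which belong to the same enzyme superfamily. After the filter 23 were left: 5 higher in kumquat, 8 lower and 10 without a call. The called share, 56.52%, was near the 57.1% of all tested models.

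Gibberellin 20-oxidases carry out the successive oxidations that lead to the precursors of active gibberellins. Of 13 models 7 were tested, with 1 higher and 2 lower. That is 42.86% called, below the 57.1% of all tested models. Ciclev10020694m, whose closest protein is named gibberellin 20 oxidase 1-D-like, had 0.11, 0 and 0 FPKM in kumquat and 6.41, 4.34 and 5.5 FPKM in clementine. Its listed values were at or near 0 in the kumquat libraries, and it was clearly measured in every clementine library (log2 change -2.62, SE 0.196, adjusted p = 2.68e-05). Ciclev10028758m, which also carries the names flavonol synthase and feruloyl-CoA ortho-hydroxylase, fell by 0.73 on the log2 scale, at 8.68, 9.44 and 11.88 FPKM in kumquat and 16.91, 16.68 and 17.81 FPKM in clementine (adjusted p = 0.00171). Ciclev10021101m, with the name feruloyl-CoA ortho-hydroxylase among others, was higher at 3.19, 3.91 and 3.52 FPKM in kumquat and 1.71, 1.92 and 2.43 FPKM in clementine (adjusted p = 0.0211).

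The most abundant 20-oxidase model, Ciclev10028688m, was at 18.86, 18.44 and 18.71 FPKM in kumquat and at 16.55, 17.41 and 19.42 FPKM in clementine. The ranges overlapped, and the 95% interval of the log2 change was -0.13 to 0.27. Of the 3 models that carry the 20-oxidase name alone, Ciclev10020694m was lower, Ciclev10005157m was not called (95% interval -0.39 to 0.61) and Ciclev10003376m was below the filter.

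The family named gibberellin 3-beta-dioxygenase, the enzyme of the last step to the active hormone, held models that differed strongly in both directions. Ciclev10005497m had 118.87, 116.93 and 124.37 FPKM in kumquat against 2.07, 2.5 and 2.36 FPKM in clementine. The kumquat mean was 52.0 times the clementine mean, with a log2 change of 5.19 (SE 0.0823, adjusted p = 4.71e-08). This model carries only the 3-beta-dioxygenase name. It held 51.1% of the family's summed FPKM in kumquat.

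Ciclev10020825m, also named flavonol synthase, had 18.36, 14.34 and 14.81 FPKM in kumquat and 1.19, 0.96 and 1.05 FPKM in clementine, a log2 change of 3.02 (adjusted p = 3.88e-06). Ciclev10015853m, with the single name, had 14.9, 20.44 and 21.54 FPKM in kumquat and 8.79, 8.93 and 8.68 FPKM in clementine (log2 change 1.01, adjusted p = 0.000689). In all 3 of these models every kumquat library lay above every clementine library. The species did not overlap in any of the 62 called gibberellin models, and 33.5% of all tested models were higher without overlap. Ciclev10008745m, the other model of the family that was higher, changed by 0.98 on the log2 scale.

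In the opposite direction, Ciclev10001622m had 0, 0.39 and 0.27 FPKM in kumquat and 14.65, 15.14 and 14.17 FPKM in clementine (log2 change -3.69, SE 0.177, adjusted p = 3.1e-06). Ciclev10001626m had 1.56, 1.51 and 1.6 FPKM in kumquat and 15.64, 15.24 and 13.93 FPKM in clementine (log2 change -2.64, SE 0.127, adjusted p = 3.15e-06). Both carry the single name, and both were at about the same level in clementine. Ciclev10001626m shares its protein match with Ciclev10002088m, which is named gibberellin 20-oxidase first, so that match carries names of different dioxygenases. Their sum was lower in kumquat in the limma fit over summed matches (log2 change -2.19, adjusted p = 2.08e-06). Smaller falls were measured for Ciclev10010627m (log2 change -1.40) and Ciclev10002117m (log2 change -1.20), both of which also carry flavonoid enzyme names. Ciclev10009037m was at 0.45, 1.78 and 0.5 FPKM in kumquat and at 3.63, 2.69 and 2.47 FPKM in clementine (log2 change -1.10, adjusted p = 0.0143). It shares its protein match with Ciclev10009042m, the most abundant model of the family in clementine, which is also named gibberellin 2-oxidase, and the sum of the pair was not called (log2 change -0.21, adjusted p = 0.0511). Its call was also lost without kumquat replicate 3 (log2 change -0.96, adjusted p = 0.0502) and without clementine replicate 1 (log2 change -0.97, adjusted p = 0.0550).

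The 2 species thus differed in which 3-beta-dioxygenase models were abundant. In clementine the top model, Ciclev10009042m, held 21.0% of the family's sum, and the top 3 together held 43.2%. In kumquat the top model and the 2 after it held 70.2%. The summed level of the 20 models was 229.08 to 243.52 FPKM in kumquat and 132.33 to 138.57 FPKM in clementine. For the 8 models with the single name it was 138.01 to 152.68 FPKM in kumquat and 44.94 to 47.39 FPKM in clementine. Most of that kumquat sum was Ciclev10005497m alone, with a mean of 120 FPKM in kumquat and 2.31 FPKM in clementine. The higher sums in kumquat therefore do not describe the family as a whole. For the 12 models with several names the sum was 86.78 to 94.24 FPKM in kumquat and 85.05 to 93.63 FPKM in clementine.

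Gibberellin 2-oxidases inactivate the hormone and its precursors, and models with this as their first KEGG name were few and low. Ciclev10009042m, which carries it as a further name, was counted with the 3-beta-dioxygenases. Its means were 26.0 FPKM in kumquat and 28.4 FPKM in clementine. Of the 8 models with the 2-oxidase name first, 3 passed the filter. Ciclev10015702m, whose closest protein is named gibberellin 2-beta-dioxygenase 8, had 3.11, 2.8 and 1.89 FPKM in kumquat against 10.87, 10.07 and 9.78 FPKM in clementine. It was lower in all kumquat libraries, with a log2 change of -1.66 (SE 0.169, adjusted p = 0.000134). Ciclev10028928m was at 7.94, 8.34 and 8.96 FPKM in kumquat and at 8.99, 8.69 and 5.49 FPKM in clementine (log2 change 0.13, 95% interval -0.29 to 0.56). Ciclev10005385m was at 0.93, 0.74 and 0.88 FPKM in kumquat and at 1.68, 2.96 and 1.21 FPKM in clementine and was not called (adjusted p = 0.0641). The summed level of the 8 models was 12.66 to 13.55 FPKM in kumquat and 18.15 to 23.62 FPKM in clementine, values for which no test was made.

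**Figure D2:**
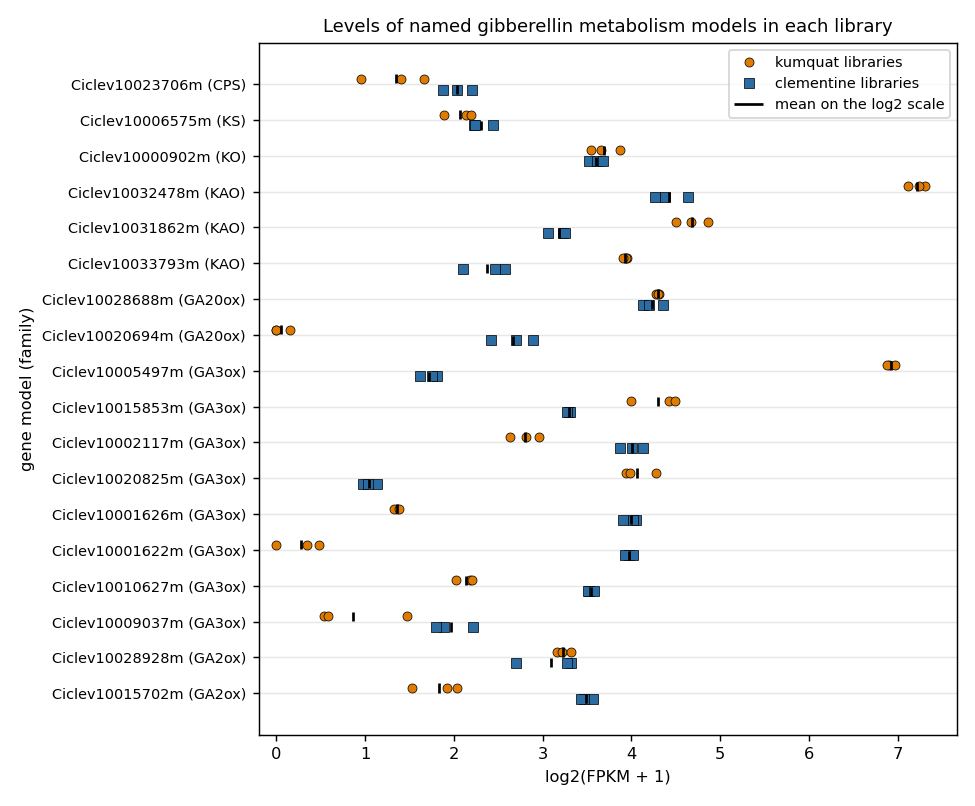
Each row is a named model of gibberellin metabolism (family in brackets), with the level in each library as log2(FPKM + 1) on the horizontal axis, circles for the 3 kumquat libraries, squares for the 3 clementine libraries and a bar at each mean. Ciclev10005497m and Ciclev10032478m stand far to the right in kumquat, Ciclev10001622m and Ciclev10020694m lie near 0 in kumquat, and Ciclev10000902m and Ciclev10028688m overlap between the species.

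The 32 models named gibberellin receptor GID1 are a mixed group. GID1 descends from plant carboxylesterases, and the KEGG name was given to relatives too: 5 of these models have a closest protein named as a carboxylesterase, and 8 carry a further KEGG name such as tuliposide A-converting enzyme. The table's GO terms separate a small subset. Of the 32 models 3 carry the term signal transducer activity, a term given to 139 models of the whole table. The 3 belong to 2 protein matches.

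Among them, Ciclev10020963m had 52.11, 47.36 and 43.93 FPKM in kumquat against 8.3, 8.01 and 7.73 FPKM in clementine. The kumquat mean was 5.97 times the clementine mean, with a log2 change of 2.43 (SE 0.0868, adjusted p = 8.37e-07). Ciclev10001720m, described for its GO term after its values were seen, was at 23.9, 19.18 and 15.7 FPKM in kumquat and at 16.59, 15.31 and 12.97 FPKM in clementine. Its groups overlapped, and the log2 change was 0.36 (95% interval -0.02 to 0.73, adjusted p = 0.0945). Summed with the third model, Ciclev10002159m, which shares its protein match, the levels were 24.29, 19.57 and 17.7 FPKM in kumquat and 17.21, 16.43 and 13.8 FPKM in clementine, and the sum was called higher (log2 change 0.35, adjusted p = 0.0394). In clementine Ciclev10001720m was thus the more abundant of the 2 matches, and in kumquat Ciclev10020963m was.

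Among the 29 models without that term, 21 were tested, 10 of them higher, 7 lower and 4 not called. The called share was 80.95%, against 57.1% of all tested models. The 2 most abundant in kumquat were low in clementine. Ciclev10005496m, with a closest protein named carboxylesterase 1-like, had 154.02, 180.09 and 182.75 FPKM in kumquat against 12.52, 14.95 and 11.43 FPKM in clementine (log2 change 3.64, SE 0.109, adjusted p = 3.8e-07). Ciclev10007184m had 170.38, 136.99 and 141.1 FPKM in kumquat against 7.35, 9.54 and 10.19 FPKM in clementine (log2 change 3.91, SE 0.131, adjusted p = 6.26e-07). In both models the lowest kumquat library was several times the highest clementine library. Ciclev10007157m had 25.12, 35.91 and 42.39 FPKM in kumquat and 2.38, 2.68 and 3.18 FPKM in clementine (log2 change 3.22, adjusted p = 9.29e-06). The other 5 models of this subset with rises of at least 2-fold (Ciclev10001722m, Ciclev10005441m, Ciclev10005443m, Ciclev10005552m and Ciclev10012167m) had log2 changes of 1.04 to 2.06.

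On the lower side, Ciclev10020972m had 0.19, 0 and 0 FPKM in kumquat and 5.56, 5.39 and 7.68 FPKM in clementine (log2 change -2.75, SE 0.201, adjusted p = 2.38e-05). Ciclev10026049m was at 8.67, 6.43 and 8.3 FPKM in kumquat and at 23.05, 21.65 and 22.87 FPKM in clementine (log2 change -1.43, adjusted p = 4.99e-05). Ciclev10012177m was at 9.91, 10.49 and 10.3 FPKM in kumquat and at 27.66, 27.66 and 25.13 FPKM in clementine (log2 change -1.31, adjusted p = 1.06e-05). Below the filter, 4 models matched to probable carboxylesterase 17 (Ciclev10009873m, Ciclev10009875m, Ciclev10009907m and Ciclev10009908m) summed to 0.09, 0.25 and 0.25 FPKM in kumquat and 1.84, 2.26 and 2.5 FPKM in clementine. Their sum was called lower in the fit over summed matches (log2 change -1.42, SE 0.171, adjusted p = 0.0001). The sum of all 32 models was 797.61 to 832.88 FPKM in kumquat and 348.34 to 357.07 FPKM in clementine. For the 3 models with the GO term it was 61.63 to 76.4 FPKM in kumquat and 21.53 to 25.51 FPKM in clementine.

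**Figure D3:**
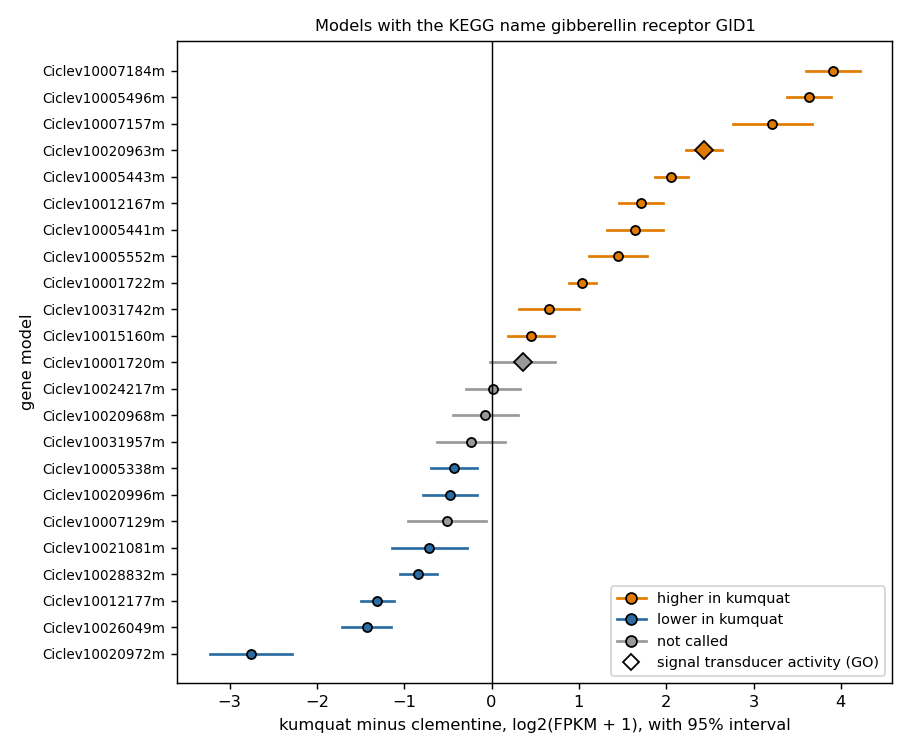
Points give the kumquat minus clementine difference on the log2(FPKM + 1) scale (horizontal axis) for the 23 tested models named gibberellin receptor GID1 (vertical axis), with 95% intervals from limma, and diamonds mark models with the GO term signal transducer activity. Changes run from -2.75 for Ciclev10020972m to 3.91 for Ciclev10007184m, and of the 2 diamonds Ciclev10020963m was higher while the interval of Ciclev10001720m spans 0.

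Of the 6 models named F-box protein GID2, 5 were tested. Ciclev10002417m was by far the most abundant, at 45.02, 35.96 and 39.81 FPKM in kumquat and at 56.88, 50.99 and 51.71 FPKM in clementine. It was lower in every kumquat library, by a small amount (log2 change -0.40, SE 0.0917, adjusted p = 0.00758). Ciclev10006854m, a partial protein by its match, was higher, at 7.62, 8.69 and 6.14 FPKM in kumquat and 2.14, 2.27 and 2.25 FPKM in clementine (log2 change 1.39, SE 0.163, adjusted p = 0.000271). The other 3 tested models were not called, with levels between 3.45 and 12.48 FPKM in the 6 libraries.

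The largest family was that of the DELLA name, with 42 models. DELLA proteins belong to the wider GRAS family of transcriptional regulators, and the KEGG name covers relatives as well: 4 of the 42 have a closest protein named SCARECROW or scarecrow-like, and 1, Ciclev10004715m, has a match named DELLA protein. That model did not exceed 0.45 FPKM in any library. For the others the table does not tell DELLA repressors from other GRAS proteins. With limma 11 of the 31 tested models came out higher in kumquat and 12 lower, and 8 were not called. That is 74.19% called, where 57.1% of all tested models were called.

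The most abundant model in both species was Ciclev10014811m, at 129.8, 152.7 and 112.47 FPKM in kumquat and at 74.73, 77.73 and 82.68 FPKM in clementine (log2 change 0.73, SE 0.108, adjusted p = 0.000867). Ciclev10014813m, which shares its protein match, had 22.23, 22.6 and 53.81 FPKM in kumquat and a listed value of 0 in each clementine library. The sum of the pair was 152.03, 175.3 and 166.28 FPKM in kumquat and 74.73, 77.73 and 82.68 FPKM in clementine, with a log2 change of 1.06 (SE 0.0685, adjusted p = 1.99e-06). Kumquat replicate 3 was the highest of its group in Ciclev10014813m and the lowest in Ciclev10014811m.

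A second pair behaved in another way. Ciclev10011141m was listed at 0 in all kumquat libraries and had 1.13, 3.57 and 4.47 FPKM in clementine (adjusted p = 0.00265). Its partner by protein match, Ciclev10011140m, was at 28.12, 28.42 and 28.8 FPKM in kumquat and at 23.86, 20.78 and 18.65 FPKM in clementine. Summed, the pair was higher in kumquat by 0.23 on the log2 scale (adjusted p = 0.0145), the opposite direction to Ciclev10011141m alone.

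Among DELLA-named models measured in both species, Ciclev10027848m and Ciclev10027940m had called rises of at least 2-fold. Ciclev10027848m had 46.2, 43.06 and 41.69 FPKM in kumquat and 16.85, 15.69 and 14.74 FPKM in clementine (log2 change 1.41, adjusted p = 6.12e-06). Ciclev10027940m had 18.65, 14.2 and 16.07 FPKM in kumquat and 7.32, 7.49 and 5.8 FPKM in clementine (log2 change 1.14, adjusted p = 0.000364). The 2 lie close to each other in the RefSeq gene order. In both of them the species did not overlap, which was so in all 62 called gibberellin models. Over all tested models 33.5% were higher without overlap. Ciclev10007843m, the second most abundant of the family, was higher by 0.87 on the log2 scale, at 77.31, 72.4 and 73.86 FPKM in kumquat and 38.58, 39.48 and 43.42 FPKM in clementine.

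A log2 change of -1 or lower was called in 7 DELLA-named models, among them Ciclev10011141m, which is listed at 0 in kumquat and for which no fold is given. Counting both directions, 32.26% of the tested DELLA-named models had a called change of at least 2-fold, against 24.5% of all tested models. Ciclev10015222m had 1.01, 1.29 and 2.15 FPKM in kumquat and 6.6, 10.42 and 10.38 FPKM in clementine (log2 change -2.03, SE 0.243, adjusted p = 0.000297). Ciclev10019186m had 4.76, 3.97 and 3.21 FPKM in kumquat and 15.27, 13.63 and 13.8 FPKM in clementine (log2 change -1.62, adjusted p = 7.14e-05). Ciclev10011085m, with the closest protein SCARECROW, a regulator of root and shoot tissue patterning in Arabidopsis, had 5.44, 4.98 and 5.48 FPKM in kumquat and 14.53, 13.55 and 11.82 FPKM in clementine (log2 change -1.18). Ciclev10018916m (log2 change -1.40), Ciclev10019083m (log2 change -1.22) and Ciclev10004586m (log2 change -1.20) made up the rest. The summed level of the 42 models was 571.42 to 600.14 FPKM in kumquat and 484.65 to 527.54 FPKM in clementine.

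**Figure D4:**
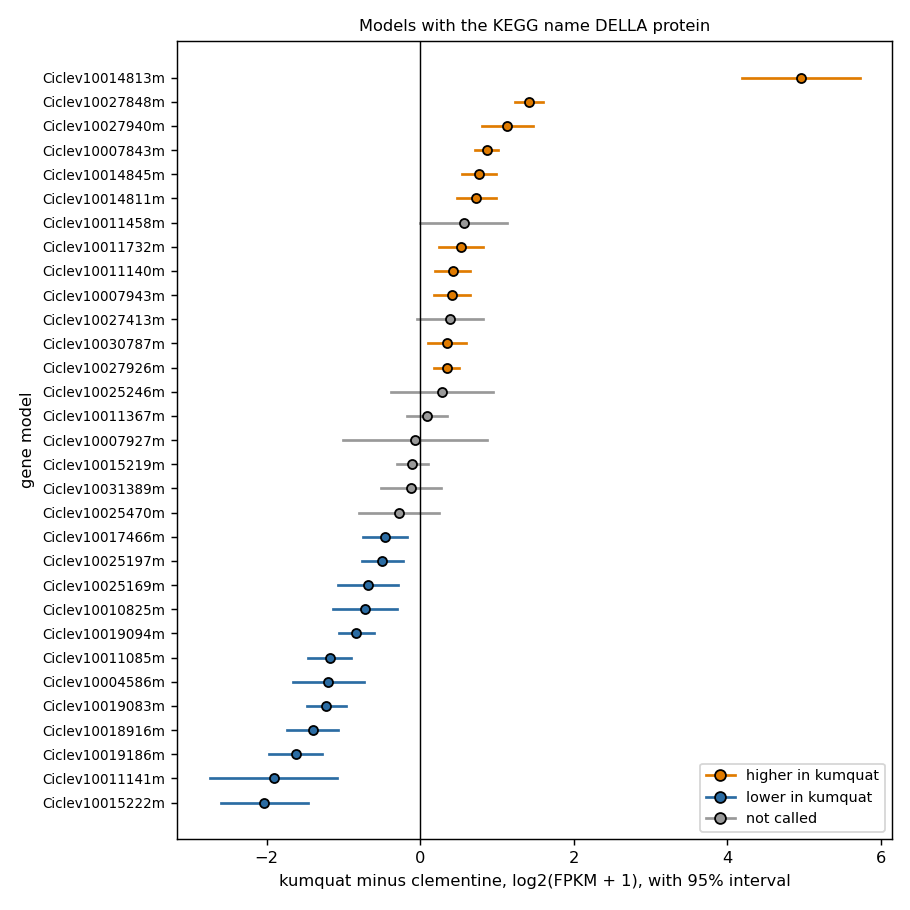
Points give the kumquat minus clementine difference on the log2(FPKM + 1) scale (horizontal axis) for the 31 tested models named DELLA protein (vertical axis), with 95% intervals from limma. The models spread on both sides of 0, with 11 higher in kumquat and 12 lower, and Ciclev10014813m, listed at 0 in clementine, stands apart at the top.

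Members that lie next to each other in the genome were grouped from the RefSeq gene order of Citrus_clementina_v1.0, which matched 81 of the 133 models by protein accession. Members of 1 family with at most 5 gene places and 200 kb between them gave 11 groups with 29 models, and 7 of the groups had at least 2 tested models. How fragments of similar neighbours were divided is not given in the sources used here. The pair of 3-beta-dioxygenase models Ciclev10001626m and Ciclev10001622m were both lower in kumquat, with a summed level of 1.56 to 1.9 FPKM in kumquat and 28.1 to 30.38 FPKM in clementine. Another pair of that name, Ciclev10002117m and Ciclev10001620m, was split, with Ciclev10001620m not called (95% interval -0.24 to 0.32).

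Among GID1-named neighbours, Ciclev10012177m was lower and Ciclev10012167m higher. The sum of this pair was 35.71 to 40.21 FPKM in kumquat and 32.06 to 36.09 FPKM in clementine, so the summed ranges overlapped where the single models did not. A group of 4 held the higher models Ciclev10005443m and Ciclev10005441m beside Ciclev10005338m, which was lower (log2 change -0.43, adjusted p = 0.0134), and Ciclev10007129m, which was not called. In a group of 5, with Ciclev10020972m among them, 2 models were lower, 2 were not called and 1 was below the filter.

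**Figure D5:**
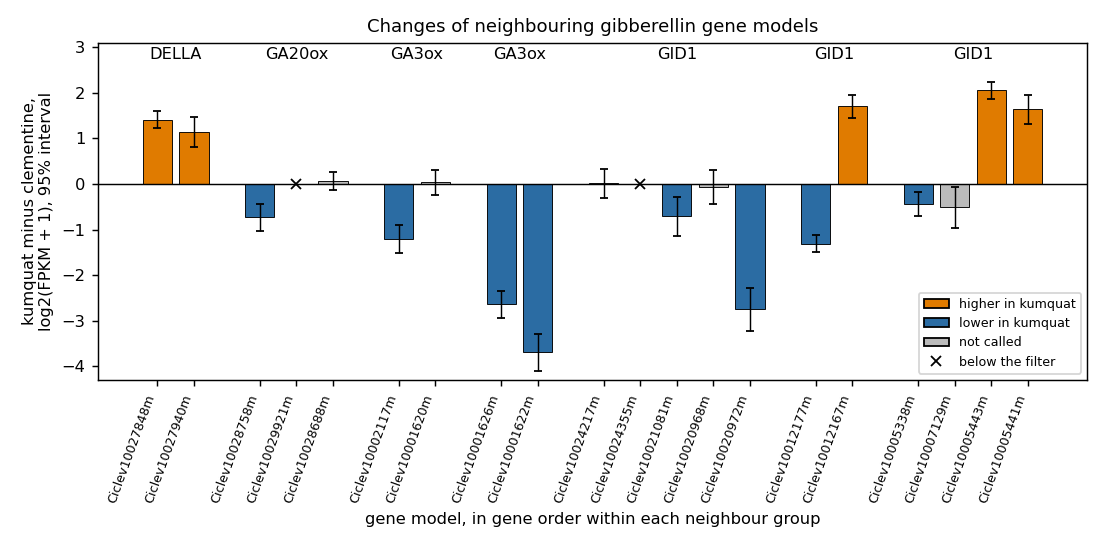
Bars show the kumquat minus clementine difference on the log2(FPKM + 1) scale (vertical axis) for neighbouring models of the same family, in gene order within each of 7 groups (horizontal axis), with 95% intervals from limma and crosses for models below the filter. The DELLA pair was higher together and 1 GA3ox pair was lower together, while 2 of the 3 GID1 groups hold models called in opposite directions.

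Genes that act before or beside the pathway were taken from the same table by name. Geranylgeranyl diphosphate synthases, which make the precursor, had 3 of 7 tested models higher and 1 lower, 57.14% called against 57.1% of all tested models. Their summed level was 437.48 to 493.12 FPKM in kumquat and 304.89 to 334.69 FPKM in clementine. The most abundant, Ciclev10012011m, had 213.9, 273.89 and 260.27 FPKM in kumquat and 141.34, 172.24 and 166.32 FPKM in clementine (log2 change 0.63, adjusted p = 0.00203). The only log2 change of 1 or more in size was that of Ciclev10008936m, at 32.74, 43.82 and 45.02 FPKM in kumquat and 1.37, 2.32 and 1.65 FPKM in clementine (log2 change 3.90, adjusted p = 2.39e-06). Ciclev10012280m was lower, at 8.82, 7.63 and 10.09 FPKM in kumquat and 18.29, 20.2 and 17.11 FPKM in clementine (log2 change -0.993).

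Phytochrome-interacting factors are transcription factors that DELLA proteins bind and hold inactive in Arabidopsis. The KEGG name may cover relatives as well: the closest protein of Ciclev10020248m is named transcription factor BIM1. All others of the 44 models match hypothetical proteins, so their place among DELLA targets rests on the KEGG name alone. Of 35 tested models with this name 10 were higher, 10 lower and 15 not called, 57.14% called against 57.1% of all tested models. Their summed level was 524.68 to 533.57 FPKM in kumquat and 532.54 to 548.56 FPKM in clementine. Ciclev10008192m was lower, at 52.94, 59.37 and 55.19 FPKM in kumquat and 101.61, 104.57 and 102.9 FPKM in clementine, and Ciclev10002396m was higher, at 47.37, 38.66 and 43.02 FPKM in kumquat and 17.96, 15.19 and 15.55 FPKM in clementine. Models named protein O-GlcNAc transferase, the KEGG name that in Arabidopsis includes the DELLA regulator SPINDLY, had 5 of 19 higher, 7 lower and 7 not called. Their called share was 63.16%. The only other model named scarecrow-like, Ciclev10004502m, was lower by 0.34 on the log2 scale (adjusted p = 0.0112).

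Gibberellin-regulated peptides of the GASA and snakin type are small secreted proteins named for their response to the hormone in other plants. They were found by their protein match, since KEGG names them otherwise, and 4 models were tested. Ciclev10012786m, matched to gibberellin-regulated protein 14, had 485.29, 498.61 and 510.14 FPKM in kumquat against 797.77, 803.31 and 794.06 FPKM in clementine (log2 change -0.68, SE 0.0479, adjusted p = 1.96e-05). It was more abundant than any of the 133 gibberellin models. Ciclev10013200m, matched to gibberellin-regulated protein 5, was higher, at 9.82, 15.55 and 16.86 FPKM in kumquat and 6.24, 6.87 and 7.72 FPKM in clementine (log2 change 0.90, SE 0.199, adjusted p = 0.00632). The other two were not called.

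Models with marker names for other tissues also differed between the same libraries. Of all tested models 57.1% were called, 29.9% as higher and 27.1% as lower. The 3 models with seed-type names were all higher in kumquat, with sums of 2467.57 to 2970.96 FPKM in kumquat and 643.73 to 808.04 FPKM in clementine. They are a vicilin-like protein and 2 models of the late embryogenesis protein Lea5, a name not limited to seeds, and no model was matched to oleosin, legumin, 2S albumin or cruciferin. Of 55 tested light-harvesting and photosystem models, 28 were lower in kumquat and 6 higher, 61.82% called in either direction. Their sums were 9756.41 to 10894.7 FPKM in kumquat and 11457.4 to 12566.5 FPKM in clementine. MADS-box models, many of which act in flowers and fruit, had 14 of 37 higher and 4 lower. That is 48.65% called, below the share of all tested models. Their sums were 2090.67 to 2395.55 FPKM in kumquat and 1775.52 to 1936.37 FPKM in clementine. Of 2 models with a pollen name 1 was tested and was higher, and both summed to 1.64 to 2.49 FPKM in kumquat and 0.15 to 0.3 FPKM in clementine. The part of these tissues in the gibberellin results was not tested, and as none of these names is limited to fruit, the tissue label was checked no further.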

How the data were processed

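RNA was measured in 3 kumquat and 3 clementine fruit libraries. Per the labels' protocols, total RNA was taken with TRIzol, treated with DNase I and sequenced on an Illumina instrument. HISAT, StringTie and DESeq2 appear in the submitters' processing notes with neither role nor version. The genome build is not given in the sources used here, and coordinates are therefore left out. The authors deposited 1 table of FPKM per gene model, per the file headers, with KEGG, GO and protein match names.

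Values were transformed as log2(FPKM + 1), keeping models that reached 1 FPKM in 3 or more libraries. They were fitted with limma 3.58.1 (R 4.3.3), whose prior variance was allowed to follow mean expression. The contrast was kumquat minus clementine with Benjamini-Hochberg adjustment over 22050 models, and tests are two-sided. Figures used matplotlib 3.10.9. The fit was tested on simulated data. The members and lists were chosen with earlier results of these data known. The other lists were phytochrome-interacting factors, gibberellin-regulated peptides, O-GlcNAc transferases, geranylgeranyl diphosphate synthases, other scarecrow-like models, and seed, green tissue, MADS-box and pollen names. Named models were those called with at least a 2-fold change and 2 FPKM or more on average in whichever species was higher, and the most abundant of each family, 42 tested models in all. Alternatives were another pseudocount, other filters, median scaling, the replicate number as a term, 1 prior variance, summing models of the same protein match, and each library left out.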

Additional observations from a re-analysis of the deposited data

How the results depend on the processing

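Of 778 values of the 42 named models under the alternatives, 757 kept their direction and their side of the threshold. The counts of models higher in kumquat, lower, higher by at least 2-fold and lower by at least 2-fold (33, 29, 19 and 17) were 32 to 35, 24 to 31, 17 to 20 and 13 to 17 under the other settings. With each library left out they were 30 to 33, 22 to 29, 17 to 20 and 11 to 17. The lowest value, 11, came without clementine replicate 1. Leaving out a clementine library leaves only 2 of that species, so a model measured in clementine alone no longer passes the filter. With the models of the full data kept, an alternative chosen after seeing the data, the counts were 31 to 33, 27 to 29, 18 to 20 and 16 to 17. The replicate block gave 34 higher and 29 lower. Between libraries of the same replicate number, r of their deviations was 0.1193, 0.0424 and 0.0657 for numbers 1 to 3. These values are small, yet each was the library's best among the 3. The deviations were taken from the mean of each species, which ties such values together, so they cannot decide whether libraries were paired. No pairing is given by the design. Ciclev10023706m was the only named call lost under the block.

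3 named models changed sign. With each library left out the log2 change of Ciclev10000902m was -0.0018 (without kumquat replicate 2) to 0.1617, and that of Ciclev10028928m was -0.0652 (without clementine replicate 3) to 0.2459, and neither was called in any of these fits. Ciclev10011141m was at 0.23 once summed with its protein match. Median scaling moved the median log2 change of all tested models to -0.003 from 0.041. The 41 models below the filter were fitted only with no filter or as part of a sum over 1 protein match, and the total depth behind their values is unknown.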
